A study of Mus musculus with 10 samples.

Results

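Genes known from tendon and from the connective tissue at the end of the muscle fibers were examined in the skeletal muscle of desmin knock-out and wild-type mice. They are 10 of the 54232 genes of the expression table and were chosen by name, namely Scx, Tnmd, Mkx, Fmod, Comp, Thbs4, Chad, Kera, Cilp2 and Cilp. The question was whether these genes move together between the genotypes and among the mice of each genotype. RNA sequencing was performed on gastrocnemius, a calf muscle that the study also names together with plantaris, of 5 homozygous desmin knock-out mice (Des -/-) and 5 wild-type littermates (Des wt/wt) at 3 months of age. The strain label, the same for all mice, gives B6J as background, 129Sv as donor and Destm1Cba/Cscl as the targeted allele. The knock-out is constitutive, so that desmin, the intermediate filament protein of muscle cells, is missing in every tissue that normally makes it. The study's methods speak of pooled muscle RNA for each genotype, whereas the table gives each mouse its own column, which was taken as 1 replicate.

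All values are regularized log (rlog) values made by the authors, which are on a log2 scale, corrected for library size and pulled in to the average of a gene, above all where reads were few. A difference of 1 is therefore a doubling on that scale and usually a larger change in reads. All 10 genes were among the 14289 genes whose mean reached log2(10), and differences were tested with limma, with adjustment over all of these genes. Des itself was 11.84 ± 0.06 (SD, n = 5) in knock-out mice and 16.58 ± 0.67 (n = 5) in wild-type mice, a difference of -4.73 with a standard error of 0.25 (limma, adjusted p = 1.5e-07). Wild-type mouse 3 stood apart from the other mice. Its values, taken as 2 to the power of the rlog value, summed to 1.484 times the median of all mice, compared with 0.949 to 1.061 times in the others. Differences without this mouse are therefore given for the tendon genes that changed. In whole muscle RNA, fewer cells of a type cannot be told apart from less RNA per cell, which holds for every difference given here.

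Tendon is built by fibroblasts, the tenocytes, that deposit parallel fibrils of type I collagen and trim their width with small leucine-rich proteoglycans. The transcription factors scleraxis (Scx) and Mohawk (Mkx) direct this program, and tenomodulin (Tnmd), a membrane glycoprotein of tenocytes, is a known target of scleraxis. Thrombospondins and other adhesive matrix proteins link the fibrils to each other and, at the myotendinous junction, to the muscle fiber. In muscle tissue such genes are read from tenocytes, from fibroblasts of the connective tissue sheaths and, for some of them, from the fibers.

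The upstream sequences of the genes around which the results turn are given first. Tnmd, Fmod, Chad and Cilp were chosen for the following patterns. Tnmd followed Fmod among the mice, but only Tnmd passed the test between the genotypes. Chad did not rise with Comp, and Cilp was lowest in the wild-type mouse in which most of the other genes were highest. Sequences are the 250 bases before the RefSeq transcription start on GRCm38.p6, 5′ to 3′ on the strand of the gene. They lie at chrX:133850758-133851007 for Tnmd, chr1:134037004-134037253 for Fmod, chr11:94564797-94565046 for Chad and chr9:65264930-65265179 for Cilp, all on the plus strand. Capitals mark the letters CANNTG, the E-box, which is bound by factors of the basic helix-loop-helix class, to which scleraxis belongs.
Tnmd: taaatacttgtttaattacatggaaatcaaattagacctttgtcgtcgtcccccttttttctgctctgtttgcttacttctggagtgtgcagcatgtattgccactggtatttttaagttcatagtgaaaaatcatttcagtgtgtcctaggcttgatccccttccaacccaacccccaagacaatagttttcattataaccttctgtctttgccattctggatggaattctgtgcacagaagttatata
Fmod: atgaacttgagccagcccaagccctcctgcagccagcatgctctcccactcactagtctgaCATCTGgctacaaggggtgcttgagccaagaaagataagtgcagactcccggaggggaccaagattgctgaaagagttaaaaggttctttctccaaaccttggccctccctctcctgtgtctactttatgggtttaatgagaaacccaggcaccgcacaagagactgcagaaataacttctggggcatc
Chad: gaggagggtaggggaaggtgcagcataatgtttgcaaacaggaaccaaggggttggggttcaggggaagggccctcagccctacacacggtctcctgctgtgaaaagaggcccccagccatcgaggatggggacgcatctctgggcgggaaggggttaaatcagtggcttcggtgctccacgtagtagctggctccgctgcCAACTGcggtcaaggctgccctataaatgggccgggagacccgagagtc
Cilp: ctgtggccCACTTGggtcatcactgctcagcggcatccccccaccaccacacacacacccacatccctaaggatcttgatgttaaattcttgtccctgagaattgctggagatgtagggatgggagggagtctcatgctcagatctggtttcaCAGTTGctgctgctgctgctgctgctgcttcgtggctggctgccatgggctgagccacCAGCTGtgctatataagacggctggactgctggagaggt

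Upstream sequences were found for 7 of the 10 genes, and those of Scx, Mkx and Comp were not analysed here. CANNTG reads the same on both strands. It was found 3 times before Cilp, beginning at -242, -97 and -39 relative to the start, and once each before Fmod, Chad, Cilp2 and Thbs4. Tnmd and Kera had no match in this window. Of all 32851 windows of this length in the table, 66.2% held at least 1 match, so that 5 of 7 is close to the share of any gene. Of the genes with a match, Cilp, Cilp2 and Thbs4 were higher in knock-out mice, and Fmod and Chad were not called. Of the genes without a match, Tnmd was higher and Kera was not called. A relation between the motif and the difference between genotypes was not tested.

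Among the regulators, Scx was higher in desmin knock-out muscle and Mkx did not pass the test. Scx (ENSMUSG00000034161, chr15:76457452-76459458, plus strand) had values of 8.56, 8.92, 8.60, 8.95 and 8.69 in knock-out mice 1 to 5 and of 7.67, 7.61, 8.38, 7.94 and 8.29 in wild-type mice 1 to 5. Every knock-out value lay above every wild-type value. The difference was 0.77 with a standard error of 0.16 (limma, adjusted p = 0.00541), or 1.70-fold on the rlog scale, and 0.87 without wild-type mouse 3. The gene lies within Bop1 on the opposite strand. The counting setting for strand is not given in the sources used here, so that reads from both genes may not have been kept apart. Bop1, a ribosome biogenesis gene, was 10.10 ± 0.03 in knock-out and 10.35 ± 0.49 in wild-type mice (SD, n = 5 each). Its difference of -0.24 did not pass (limma, adjusted p = 0.42) and was -0.05 without wild-type mouse 3. In that mouse Bop1 (11.14) and Scx (8.38) were both the highest of the wild-type mice.

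Mkx (ENSMUSG00000061013, chr18:6934518-7004780, minus strand) had the lowest level per exon length of the 10 genes. It measured 5.03, 4.60, 4.97, 4.94 and 5.05 in knock-out mice and 4.38, 4.70, 3.87, 4.10 and 5.25 in wild-type mice. The ranges overlapped. Wild-type mouse 5 had the highest value of all 10 mice, and wild-type mouse 2 (4.70) also lay above knock-out mouse 2 (4.60). The difference was 0.46 with a 95% confidence interval from -0.01 to 0.92 (limma, adjusted p = 0.191). Without wild-type mouse 5 it was 0.65 and passed (limma, adjusted p = 0.0234), so that 1 mouse decided this call. Part of Mkx overlaps AC148004.2 (chr18:6910459-6936621) on the same strand, a gene without values in the expression table. Reads from the shared stretch cannot be told apart by strand.

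Tnmd (ENSMUSG00000031250, chrX:133850980-133865577, plus strand) showed the largest difference of the 10 genes. Its values were 8.71, 8.62, 7.97, 8.85 and 8.50 in knock-out mice and 6.86, 6.84, 7.14, 6.39 and 7.89 in wild-type mice. The genotypes did not overlap, although wild-type mouse 5 came close to knock-out mouse 3. The difference of 1.51 (standard error 0.24) was 2.85-fold on the rlog scale (limma, adjusted p = 8.2e-04), and it was 1.54 without wild-type mouse 3.

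The small leucine-rich proteoglycans Fmod and Kera showed no difference beyond the spread between mice. Fibromodulin (Fmod, ENSMUSG00000041559, chr1:134037254-134048277, plus strand), which binds type I collagen and controls fibril width, measured 10.84, 10.75, 10.19, 10.79 and 10.37 in knock-out mice and 10.07, 10.32, 10.40, 9.15 and 11.00 in wild-type mice. The highest and the lowest value both belonged to wild-type mice, mouse 5 and mouse 4. The difference was 0.40 with a 95% confidence interval from -0.17 to 0.97 (limma, adjusted p = 0.353). This interval still included the differences of Scx, Comp, Cilp2 and Thbs4. Fmod lies on the same chromosome as Des, 58.7 Mb away.

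Keratocan (Kera, ENSMUSG00000019932, chr10:97606879-97613692, plus strand), a keratan sulfate proteoglycan of cornea and tendon, measured 5.75, 5.81, 5.38, 6.77 and 5.77 in knock-out mice and 5.90, 5.69, 5.45, 4.87 and 7.74 in wild-type mice. The wild-type mice spanned a wider range than the knock-out mice on both sides. The difference was -0.03 with a 95% confidence interval from -0.95 to 0.88 (limma, adjusted p = 0.968). The interval still included the differences of Scx and Comp but left out those of Cilp2, Thbs4, Cilp and Tnmd.

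Both thrombospondins rose. Thbs4 (ENSMUSG00000021702, chr13:92751590-92794818, minus strand), a matrix protein of the myotendinous junction and of tendon, measured 13.04, 12.94, 12.52, 12.88 and 12.85 in knock-out mice and 11.80, 11.87, 12.49, 11.44 and 11.83 in wild-type mice. All knock-out values lay above the wild-type values, with wild-type mouse 3 only just below knock-out mouse 3. The difference was 0.96 with a standard error of 0.16 (limma, adjusted p = 0.00143), 1.94-fold on the rlog scale, and 1.11 without wild-type mouse 3.

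Cartilage oligomeric matrix protein (Comp, ENSMUSG00000031849, chr8:70373558-70382066, plus strand), the other thrombospondin, measured 8.32, 7.95, 7.54, 7.92 and 7.51 in knock-out mice and 6.72, 6.77, 7.12, 6.69 and 7.59 in wild-type mice. Wild-type mouse 5 exceeded knock-out mice 3 and 5, whereas the other 4 wild-type mice lay below all knock-out mice. The difference was 0.87 with a standard error of 0.19 (limma, adjusted p = 0.00891), 1.83-fold, and 0.90 without wild-type mouse 3.

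Chondroadherin (Chad, ENSMUSG00000039084, chr11:94565047-94569127, plus strand), a leucine-rich repeat protein that binds collagen and integrin, did not rise with the thrombospondins. It measured 7.00, 6.55, 6.14, 6.43 and 6.12 in knock-out mice and 6.22, 6.60, 6.89, 5.94 and 7.35 in wild-type mice. The ranges overlapped almost completely. The difference was -0.15 with a 95% confidence interval from -0.68 to 0.37 (limma, adjusted p = 0.722), so that the interval left out differences of the size seen for Comp and Thbs4. Chad lies within Acsf2 on the opposite strand, which measured 4.62 ± 0.28 in knock-out and 4.91 ± 0.15 in wild-type mice (SD, n = 5 each).

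The cartilage intermediate layer proteins were both higher in knock-out mice. Cilp (ENSMUSG00000042254, chr9:65265180-65280605, plus strand), a secreted matrix protein that antagonizes transforming growth factor beta, measured 12.89, 12.48, 12.08, 12.39 and 12.44 in knock-out mice and 10.92, 11.01, 11.83, 11.53 and 10.58 in wild-type mice. The genotypes did not overlap, and wild-type mouse 5 was lowest rather than highest. The difference was 1.28 with a standard error of 0.21 (limma, adjusted p = 0.00114), 2.44-fold on the rlog scale, and 1.45 without wild-type mouse 3.

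Cilp2 (ENSMUSG00000044006, chr8:69880369-69887687, minus strand), its paralog, measured 7.05, 7.38, 6.46, 6.89 and 6.71 in knock-out mice and 5.76, 5.91, 5.81, 5.84 and 6.51 in wild-type mice. Wild-type mouse 5 exceeded knock-out mouse 3, and the other 4 wild-type mice lay below all knock-out mice. The difference was 0.93 with a standard error of 0.18 (limma, adjusted p = 0.00401), 1.90-fold, and 0.89 without wild-type mouse 3.

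**Figure D1:**
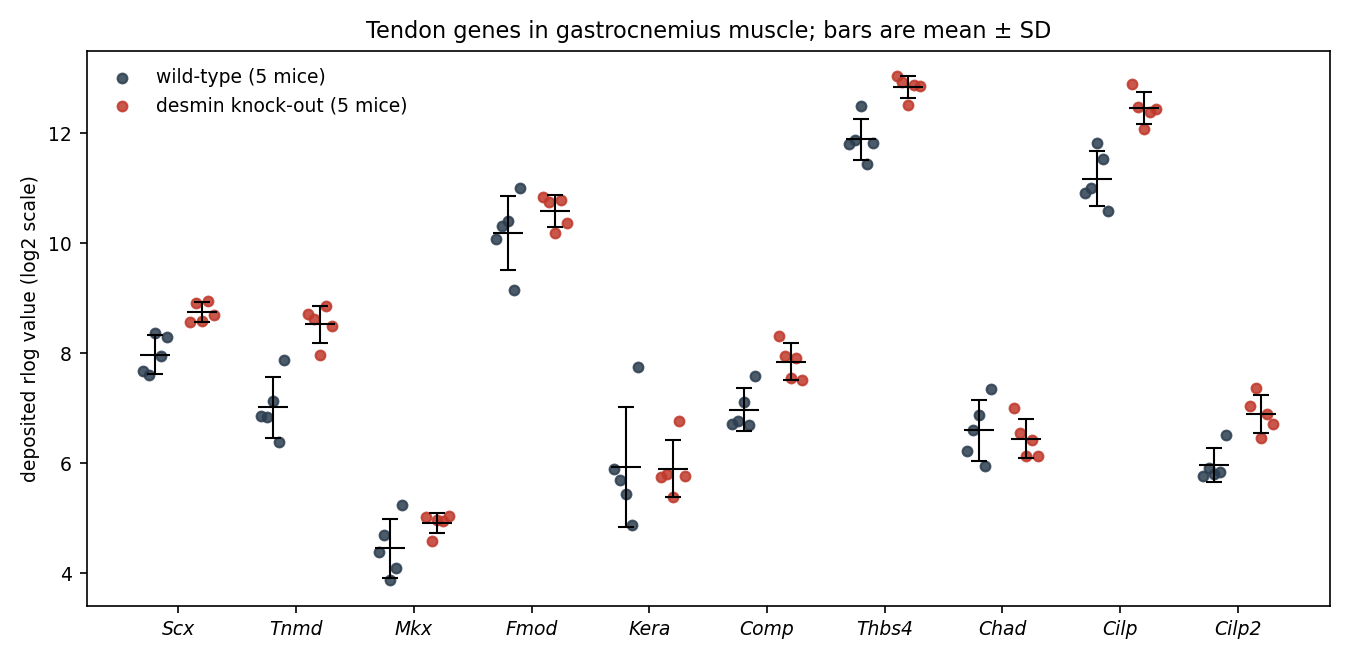
Level of each of the 10 genes in each mouse as rlog value (log2 scale, vertical axis), with 5 desmin knock-out and 5 wild-type mice side by side and bars for the mean and SD. Scx, Tnmd, Thbs4 and Cilp show no overlap between the genotypes, whereas the values of Mkx, Fmod, Kera, Comp, Chad and Cilp2 overlap.

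In all, 6 of the 10 genes rose in knock-out mice (Scx, Tnmd, Comp, Thbs4, Cilp and Cilp2) and 0 fell, both at an adjusted p under 0.05 and at an unadjusted p under 0.05 (limma). Among all tested genes 13.7% passed in either direction and 7.7% were higher by adjusted p. By an unadjusted p under 0.05 (limma), 2077 of all 14289 tested genes were higher and 1871 lower. For 4 of the 10 genes all knock-out values lay above all wild-type values, compared with 7.45% of all tested genes. The median difference of the 10 genes was 0.82, compared with -0.00 for all tested genes. These calls stood in each of 17 alternative fits, among them every fit without 1 of the mice. The 10 genes were chosen with earlier results of these data known, so that their comparison with all tested genes is a description.

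**Figure D2:**
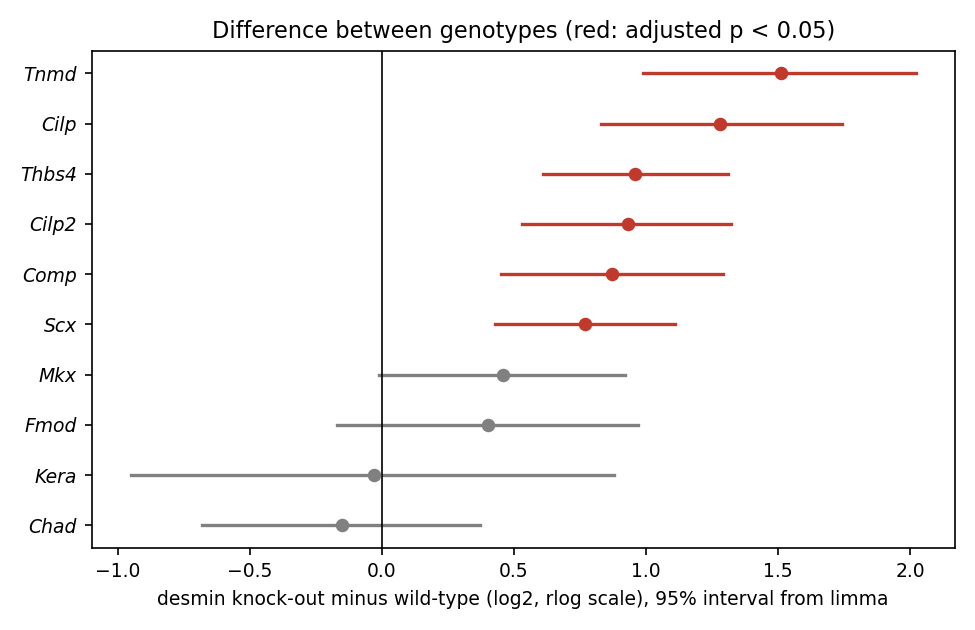
Difference between desmin knock-out and wild-type mice for each gene on the rlog (log2) scale, with 95% confidence interval from limma over all 10 mice. Scx, Tnmd, Comp, Thbs4, Cilp and Cilp2 lie between 0.77 and 1.51, while the intervals of Mkx, Fmod, Kera and Chad include 0.

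Levels were compared between genes after subtraction of log2 of the exon length in kb from the rlog value. In wild-type mice the order was Thbs4 (10.17), Cilp (9.08), Fmod (8.46), Scx (6.97), Tnmd (6.59), Chad (5.85), Comp (5.41), Kera (4.74), Cilp2 (3.86) and Mkx (2.43). Cilp and Fmod, Scx and Tnmd, Chad and Comp, Comp and Kera, and Kera and Cilp2 differed by less than the larger SD of each pair, so that their order is uncertain. In knock-out mice Tnmd (8.09) came before Scx (7.74), Comp (6.28) before Chad (5.70) and Cilp2 (4.79) before Kera (4.71), and the other ranks were kept. Cilp2 and Kera again differed by less than the larger SD, so that their order is uncertain here too.

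Next, it was examined whether the genes varied together among mice of the same genotype. For this, each value was taken as deviation from the mean of its genotype, so that the genotype difference itself does not enter. Of the 45 pairs of genes, 37 had a positive Pearson correlation over the 10 mice. The median r was 0.51 and the median Spearman rho 0.35, compared with a median r of -0.001 over all pairs of tested genes. Every rho given here was computed on ranks taken separately within each genotype. Among the 6 genes that rose the median r was 0.46 (15 pairs), and among the other 4 it was 0.69 (6 pairs). By rank these medians were 0.40 and 0.25, and 1 pair in each set passed the test described next.

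The mice showed the same pattern gene by gene. Wild-type mouse 5 was the highest wild-type mouse for 7 of the 10 genes, and wild-type mouse 4 the lowest for 6. Among knock-out mice, mouse 1 was highest for 5 genes and mouse 3 lowest for 6. Cilp differed in this between the genotypes. Its r over all 10 mice had a median of -0.16 and was positive with 3 of 9 genes, but within the wild-type mice it was positive with 2 and within the knock-out mice with 8 of 9. Mkx, in turn, was positive with 6 of 9 genes within the wild-type mice and with 1 within the knock-out mice. With 5 mice each, these signs are a description and the difference was not tested. In wild-type mouse 5, Cilp was lowest of its genotype while Tnmd, Mkx, Fmod, Kera, Comp, Chad and Cilp2 were highest. The order of the mice was not particular to the tendon genes. Among the genes of general fibroblasts described below, wild-type mouse 5 was highest of its genotype for all but Dpp4, Ly6a, Cd248 and Fap. Knock-out mouse 3 was lowest for all of them but Tcf4 and Lsp1. Whether the tendon genes varied together more closely than fibroblast genes was not tested.

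A total of 5 pairs passed an exact permutation test that exchanged mice within genotypes, with adjustment over the 45 pairs (14400 permutations, 10 mice, smallest possible p = 6.9e-05). The closest pair was Comp and Chad (r = 0.94, exact permutation p = 6.9e-05, adjusted 0.00313). Within each genotype both put the mice in the same order (rho = 1.00, exact permutation p = 1.4e-04, adjusted 0.00625). Without the 2 mice farthest from the median of Comp, r was 0.84. Tnmd followed Fmod (r = 0.91, exact permutation p = 0.00153, adjusted 0.0229) with a rho of 0.90 (exact permutation p = 0.00431, adjusted 0.0484), and r was 0.82 without the 2 farthest mice.

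Fmod and Chad were alike (r = 0.90, exact permutation p = 0.00153, adjusted 0.0229), with a rho of 0.90 (exact permutation p = 0.00431, adjusted 0.0484) and an r of 0.82 without the 2 farthest mice. Tnmd with Kera (r = 0.89, exact permutation p = 0.00229, adjusted 0.0258) and Tnmd with Comp (r = 0.84, exact permutation p = 0.00347, adjusted 0.0312) did not pass by rank. Their rho was 0.70 (exact permutation p = 0.0522, adjusted 0.235) and 0.75 (exact permutation p = 0.0336, adjusted 0.168). Without the 2 farthest mice their r was 0.61 and 0.71. Leaving out the farthest mice narrows the range of values, so that a lower r cannot show whether a relation rested on them. The most negative r was that of Mkx with Cilp, -0.75 (exact permutation p = 0.0474, adjusted 0.178; rho = -0.40), which was -0.32 without the 2 farthest mice and did not pass the adjustment.

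**Figure D3:**
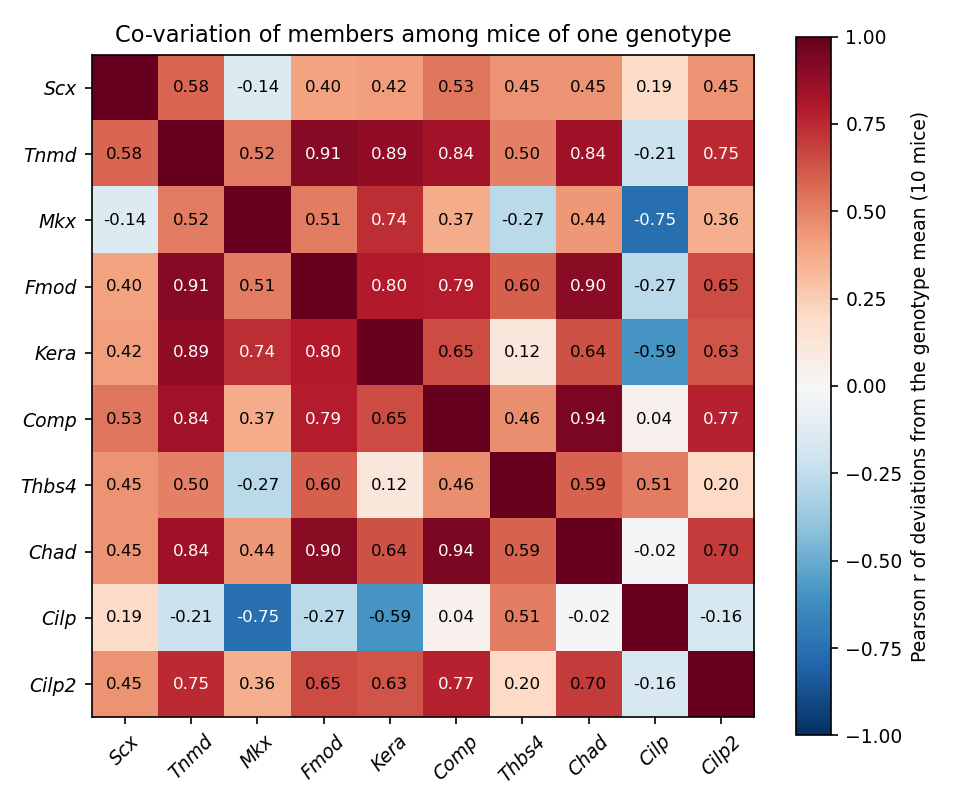
Pearson correlation of each pair of genes over 10 mice, computed on deviations from the genotype mean of the rlog value (color scale from -1 to 1). Comp with Chad (0.94) and Tnmd with Fmod (0.91) are highest, and Cilp has a negative value with 6 of the other 9 genes, although within the knock-out mice alone it was positive with 8 of 9.

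Genes that vary together among mice can still differ between the genotypes, and this was examined within each mouse, by subtracting the rlog value of 1 gene from that of another. This comparison was added after the values had been seen. Of the 45 pairs, 8 separated the genotypes without overlap, each with the smallest p that 5 against 5 mice can give (exact permutation p = 0.00794, adjusted over 45 pairs 0.0446). Over all 102080616 pairs of tested genes, 15.8% separated the genotypes in this way, so that the count is near that of any genes and only the single pairs are described. Of the 8 pairs, 7 joined a gene that had risen with one that had not, out of 24 such pairs, and 1 joined a pair of genes that had both risen, out of 15. Whether a gene had risen was decided on these same values, so that this split is partly given by the sorting.

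Comp and Chad, the pair that varied most closely among mice, differed by 1.40 ± 0.06 in knock-out mice (range 1.32 to 1.49) and by 0.38 ± 0.24 in wild-type mice (range 0.17 to 0.75, SD, n = 5 each). Comp was thus higher relative to Chad in every knock-out mouse, by 1.02 on average. Tnmd minus Fmod was -2.06 ± 0.15 in knock-out mice and -3.17 ± 0.26 in wild-type mice, with ranges from -2.22 to -1.87 and from -3.48 to -2.76, a shift of 1.11. Tnmd also shifted against Kera by 1.54 and against Chad by 1.66.

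Chad likewise shifted by -1.08 relative to Cilp2 and by -1.44 relative to Cilp, and Thbs4 by 1.11 relative to Chad. Tnmd rose more than Comp, with Tnmd minus Comp at 0.68 ± 0.28 in knock-out and 0.04 ± 0.22 in wild-type mice (SD, n = 5 each). Among the other genes that rose, Comp, Thbs4 and Cilp2 kept the smallest shifts against each other, with -0.09 for Comp minus Thbs4 (exact permutation p = 0.754), -0.06 for Comp minus Cilp2 (p = 0.698, exact permutation) and 0.03 for Thbs4 minus Cilp2 (p = 0.873, exact permutation).

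**Figure D4:**
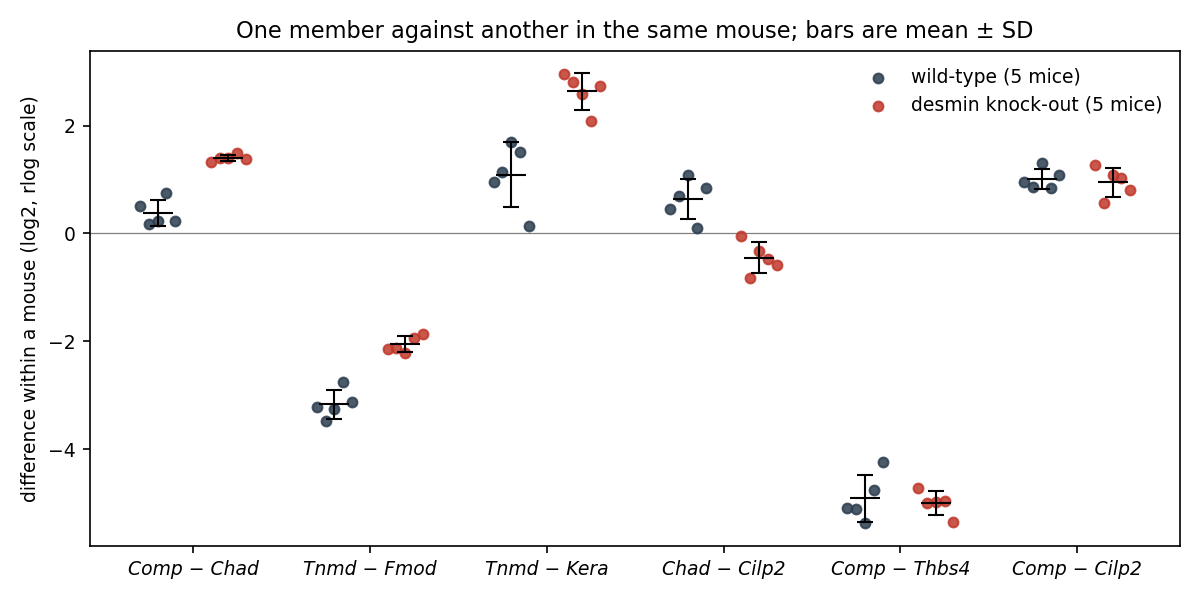
Difference between the rlog values of a pair of genes within each mouse (log2 scale), for 5 desmin knock-out and 5 wild-type mice. Comp minus Chad, Tnmd minus Fmod, Tnmd minus Kera and Chad minus Cilp2 separate the genotypes, whereas Comp minus Thbs4 and Comp minus Cilp2 overlap.

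For 3 of the genes, the 5 tested genes whose deviations were most like theirs over the 10 mice were sought. For Tnmd these were Vash1 (r = 0.975), Cdc42ep4 (0.968), Cd109 (0.965), Antxr1 (0.953) and Matn2 (0.951). Of these only Cd109, a membrane protein that binds transforming growth factor beta, was higher in knock-out muscle (difference 0.70, limma, adjusted p = 5.5e-04). For Fmod they were Kyat3 (r = 0.982), Ackr2 (0.965), Adamtsl1 (0.964), Med12l (0.958) and Cpxm2 (0.958), and none passed, with adjusted p values from 0.344 to 0.978 (limma). For Comp, Chad came first (r = 0.941), followed by Traf5 (0.933), Sh3d19 (0.923), Shroom4 (0.912) and Mmp2 (0.910). Sh3d19 (difference 1.00, limma, adjusted p = 2.2e-04), Traf5 (0.56, adjusted p = 0.0188) and the gelatinase gene Mmp2 (0.52, adjusted p = 0.0248) were higher in knock-out muscle. These genes were picked out of 14289 for their likeness, so that high r values are given by the choice.

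Other genes of tendon were examined from lists of known genes. Of 9 collagens of tendon, 5 were higher (Col1a1, Col1a2, Col3a1, Col11a1 and Col12a1) and 0 lower when adjusted (limma, p under 0.05). At an unadjusted p under 0.05, 6 were higher and 0 lower, compared with 2077 and 1871 of all 14289 tested genes. Their median difference was 0.52. Col12a1, a fibril-associated collagen, was higher by 1.53 (standard error 0.21, adjusted p = 3.1e-04, limma), Col11a1 by 1.12 (0.16, adjusted p = 3.6e-04) and Col1a2, a chain of type I collagen, by 0.64 (0.14, adjusted p = 0.00795). Only 3 collagens passed without knock-out mouse 1, 2, 4 or 5 or without wild-type mouse 2 or 4, each left out alone, and also with median centring, with 1 prior variance for all genes or without an expression limit. Col12a1, Col11a1 and Col1a2 passed in every alternative.

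Of 22 tested genes for other tendon matrix, 7 were higher (Lum, Aspn, Tnc, Thbs2, Prg4, Lox and Mfap4) and 1 was lower (Htra1), with a median difference of 0.40. Among all tested genes 13.7% passed in either direction and 7.7% were higher by adjusted p (limma). At an unadjusted p under 0.05, 11 genes of the list were higher and 2 lower, compared with 2077 and 1871 of all 14289 tested genes. Asporin (Aspn), a leucine-rich proteoglycan, was higher by 1.39 (standard error 0.28, limma, adjusted p = 0.00451) and tenascin C (Tnc) by 1.01 (0.20, adjusted p = 0.00431). Htra1, a secreted protease of matrix proteins, was lower with a difference of -1.15 (0.12, limma, adjusted p = 3.5e-05). Without knock-out mouse 1, 2 or 4, or without an expression limit, 5 genes of this list passed.

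Of 15 tested regulators of tendon, 6 were higher (Egr1, Egr2, Tgfb2, Gdf5, Etv5 and Spry2) and 1 was lower, namely myostatin (Mstn, difference -0.93, limma, adjusted p = 0.00704). Gdf5, a growth factor of joint and tendon, was higher by 0.96 (standard error 0.14, limma, adjusted p = 3.9e-04), the transcription factor Egr2 by 1.02 (0.15, adjusted p = 4.5e-04) and Tgfb2 by 0.58 (0.12, adjusted p = 0.00488). The median difference of this list was 0.37. Among all tested genes 13.7% passed in either direction and 7.7% were higher by adjusted p (limma). At an unadjusted p under 0.05, 9 regulators were higher and 1 lower, compared with 2077 and 1871 of all 14289 tested genes. The number called ranged over the alternatives from 5, as with the limit of log2(50), to 11 with sample weights. Egr1 and Egr2 are also immediate early genes of many cell types.

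On the muscle side of the myotendinous junction, 2 of 18 genes rose and 0 fell by adjusted p (limma). This is near the 7.7% of all tested genes that rose by adjusted p. By an unadjusted p under 0.05, 5 rose and 0 fell, compared with 2077 and 1871 of all 14289 tested genes. The 2 genes were Col24a1 (0.91, standard error 0.22, adjusted p = 0.0156, limma) and Col22a1 (0.43, 0.13, adjusted p = 0.0484), a collagen of the junction itself, whose call was lost in 13 of 17 alternatives. Without an expression limit the call of Col24a1 was lost as well (limma, adjusted p = 0.0541). The median difference was 0.22, and 0.08 without wild-type mouse 3.

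Several of the 10 genes are also genes of cartilage. Of its defining genes, Matn1 and Snorc had the value 0 in all mice, Acan lay between -1.46 and -1.32, and Col2a1, at 2.34 to 2.66, was under the expression limit. Of 13 cartilage genes only 3 reached that limit, namely Col11a2, which was not called, Sox9, which was higher (1.02, standard error 0.22, limma, adjusted p = 0.00757), and Col9a1, which was lower (-1.02, 0.25, adjusted p = 0.0138) but not without the limit (adjusted p = 0.0511).

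Genes of general fibroblasts were called in both directions. Of 14 tested genes 3 passed, where 13.7% of all tested genes did. Of these 3 genes 1 was higher (Mfap5, 0.38, limma, adjusted p = 0.0461) and 2 were lower (Ly6a, -0.40, adjusted p = 0.00764, and Cd248, -0.64, adjusted p = 0.0178), with a median difference of -0.02 over the list. The mean level of the fibroblast genes lay between 9.29 and 9.75 in knock-out and between 9.43 and 9.95 in wild-type mice, while that of the 10 tendon genes lay between 8.19 and 8.72 and between 7.39 and 8.40. The call of Mfap5 was lost in 12 of 17 alternatives. Of 10 macrophage genes 0 passed at an adjusted and 0 at an unadjusted p under 0.05 (limma), with differences from -0.18 to 0.24.

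Single genes of the fiber types also changed, and by adjusted p the share for fast fibers was near the 13.7% of all tested genes. Of 12 fast fiber genes 0 were higher and 2 lower (Actn3, -0.97, limma, adjusted p = 0.0196, and Myh4, -0.71, adjusted p = 0.036). At an unadjusted p under 0.05, 1 was higher and 5 were lower, compared with 2077 and 1871 of all 14289 tested genes. The median difference was -0.41, or -0.26 without wild-type mouse 3. The call of Myh4 was lost in 11 and that of Actn3 in 3 of 17 alternatives. Of 8 slow fiber genes 3 passed, where 13.7% of all tested genes did. Tnnt1 (1.70, standard error 0.20, limma, adjusted p = 8.5e-05) and Tnni1 (0.91, 0.21, adjusted p = 0.0103) were higher and Myl3 was lower (-0.998, 0.24, adjusted p = 0.0143). The median difference of the slow fiber genes was 0.20, or 0.34 without wild-type mouse 3. Without an expression limit the call of Myl3 was lost (limma, adjusted p = 0.055). The part of these fiber type changes in the values of the 10 tendon genes was not tested.

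**Figure D5:**
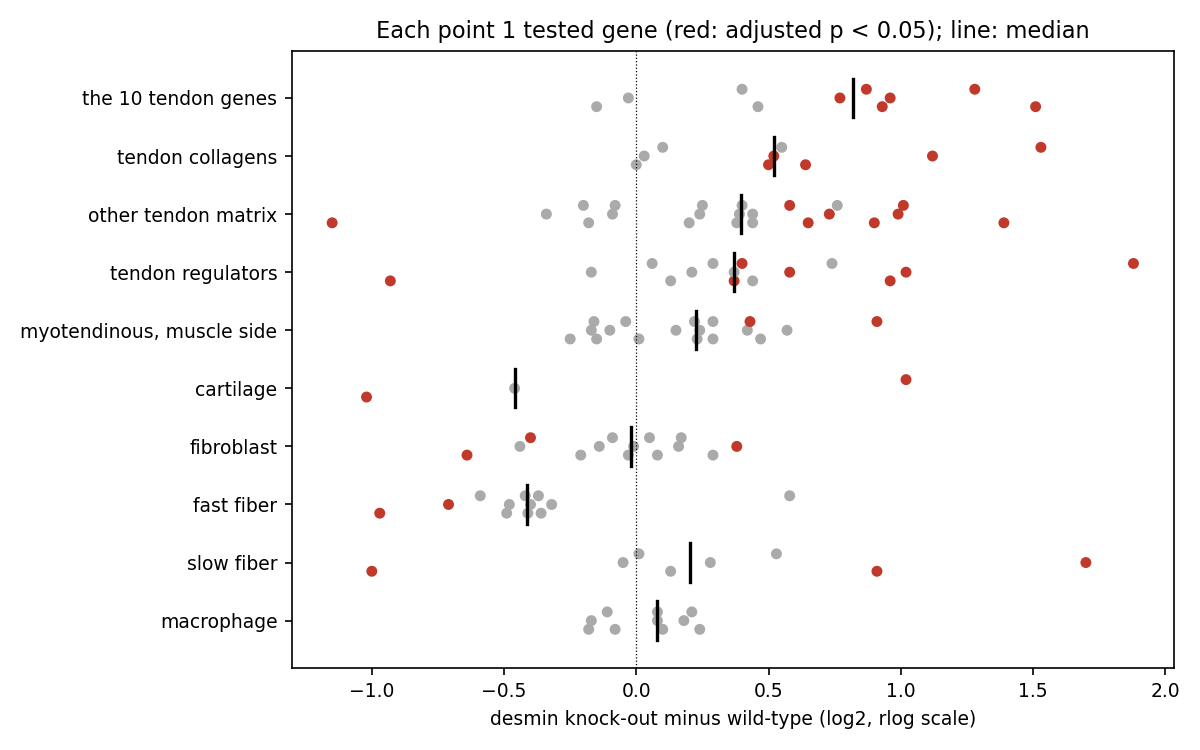
Difference between desmin knock-out and wild-type mice on the rlog (log2) scale for each tested gene of the 10 tendon genes and of 9 other lists, with red points for genes with an adjusted p under 0.05 (limma) and a line at the median of each list. The median is 0.82 for the 10 tendon genes, 0.52 for tendon collagens and -0.02 for fibroblast genes.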

How the data were processed

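RNA was taken from the gastrocnemius of 5 desmin knock-out and 5 wild-type mice, and groups follow the genotype in the labels. Per the submitters' processing notes, cutadapt 2.5, STAR 2.5.4a, Subread 1.6.1, featureCounts and DESeq2 were used on GRCm38. The deposited table holds regularized log values, which the authors made on a log2 scale after a correction for library size. Each value is shrunken to the average of its gene, which makes differences of genes with few reads smaller. Counts were not used here, so depth and counting error are unknown.

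Of 54232 genes, 14289 had an average of log2(10) or more and entered a two-sided test with limma (version 3.58.1, R 4.3.3), with a prior variance fitted along the level of expression. Adjustment was by Benjamini-Hochberg over all of them. The test was checked on simulated data. Correlations and within-mouse differences used exact two-sided permutation tests in scipy 1.17.1 over all exchanges, where draws had been planned for the correlations. Same-numbered mice of both genotypes did not deviate together (correlations from -0.22 to 0.07), and the main test did not pair mice by number. These correlations cannot exclude a pairing by design. The labels call the mice biological replicates. Symbols and positions are from GENCODE M21, upstream sequences from RefSeq (GRCm38.p6). Named were Des, the 10 genes, in each other list at most 3 genes of the lowest adjusted p, if under 0.05, and the 5 genes most like Tnmd, Fmod and Comp. Further genes named by their call or by the order of the mice were chosen after their values were seen. The 10 genes and all lists were chosen with earlier results of these data known.

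Alternatives were quantile normalization, median centring, sample weights, no expression limit or one of log2(50), 1 prior variance for all genes, the replicate number as a block, an adjusted p under 0.01, rank correlation and each mouse left out. The alternatives for lists, named pairs and within-mouse differences were added once the values were known.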

Additional observations from a re-analysis of the deposited data

Results flagged for a closer look

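Of 22 groups of 5 mice examined (Des and the 10 tendon genes in each genotype), 3 had a mouse farther from the others than the 95% limit of Dixon's test, where chance gives about 1.1. Des was 17.74 in wild-type mouse 3, the highest of its genotype. Mkx was 4.60 in knock-out mouse 2, the lowest of its genotype. Cilp2 was 6.51 in wild-type mouse 5, the mouse that also had the highest wild-type value of Tnmd, Mkx, Fmod, Kera, Comp and Chad.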

How the results depend on the processing

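The number of the 10 tendon genes that passed was 6 in every alternative, the replicate block and an adjusted p under 0.01 included, except 7 without wild-type mouse 5, so that leaving out each mouse gave 6 to 7. With the replicate block no tendon gene changed its call, and 1579 instead of 1956 of all tested genes passed. Sample weights gave 4220 (2093 higher, 2127 lower, against 1100 and 856). The largest adjusted p of the 6 genes was 0.0325, for Comp (limma). Kera, never called, turned to 0.114 with sample weights and ranged from -0.30 to 0.419 when each mouse was left out. Chad ranged from -0.32 to 0.035, the latter without wild-type mouse 5. The median within-genotype r was 0.35 by rank and 0.393 (without wild-type mouse 5) to 0.675 (without wild-type mouse 3) when each mouse was left out. The number of pairs whose difference separated the genotypes was then 8 to 13, highest without wild-type mouse 4. Comp with Chad passed in 13 of 13 alternatives, Tnmd with Fmod in 9, Fmod with Chad in 8, Tnmd with Comp in 3 and Tnmd with Kera in 2, and fewer mice raise the smallest p that can be reached. Without counts, depth sets an unknown limit on the genes with low values, Mkx, Kera, Cilp2 and Chad. Mkx was not tested with the limit of log2(50). The causes of these changes were not tested.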
